A study of Caenorhabditis elegans with 8 samples.

Results

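The dod genes of Caenorhabditis elegans ("downstream of daf-16") were described across age and arsenite treatment in whole worms. Members were the rows of the deposited count table whose WormBase symbol is dod-3, dod-6, dod-17, dod-19, dod-21, dod-22, dod-23 or dod-24, and all 8 were found among the 46748 genes of the table. Messenger RNA had been sequenced from hermaphrodites of the wild-type laboratory strain N2 in 8 libraries: 2 of worms with arsenite at an age of 5 days, 2 of worms with water at 5 days, 2 of worms with arsenite at 1 day and 2 of worms with water at 1 day. No mutation or transgene is named for any group, so all 4 groups share the N2 background. The labels give 100 nM for arsenite and for water alike and do not say how long the worms were exposed. The libraries of the 5-day worms carry numbers from 23 to 26 and those of the 1-day worms from 31 to 34, so age and library series are confounded and cannot be told apart. Whether the replicate libraries were grown as separate cultures is not stated, and p-values therefore reflect sample-to-sample spread that may be technical.

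DAF-16 is the worm's FOXO transcription factor. Signalling through the insulin/IGF receptor DAF-2 keeps it out of the nucleus, and long life of daf-2 mutants requires it. The dod genes were named from expression profiles of daf-2 and daf-16 animals: dod-3 and dod-6 belong to the class that is higher when DAF-16 is active (class I), and dod-17, dod-19, dod-21, dod-22, dod-23 and dod-24 to the class that is lower then (class II). The zinc finger factor PQM-1 is known as a regulator of class II genes. Proteins of dod-17, dod-21, dod-22 and dod-24 carry a CUB-like domain, found in many intestinal genes that answer to bacterial infection and to the PMK-1 p38 kinase pathway. Biochemical roles of the remaining members are not established well enough to be given.

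On the WBcel235 build, 4 of the 8 genes lie close together on chromosome IV. They are dod-21 (WBGene00007873, from 12936738 to 12937988), dod-24 (WBGene00007875, from 12940106 to 12941354), dod-22 (WBGene00010125, from 12965374 to 12967392) and dod-17 (WBGene00010745, from 12976303 to 12978343), within a stretch of 41.6 kb that holds 13 protein-coding genes. The others are dod-3 (WBGene00016052) on chromosome V from 2730622 to 2731098, dod-19 (WBGene00022644) on chromosome V from 411782 to 414759, dod-23 (WBGene00009898) on chromosome II from 8398161 to 8399164 and dod-6 (WBGene00011869) on chromosome III from 10197716 to 10198352. All 8 are annotated as protein-coding, and no exon of a member overlaps an exon of another gene in the Ensembl annotation. Encoded proteins have 60 residues for dod-6, 106 for dod-3 and 361 for dod-21 and dod-24, and the annotated dod-19 isoforms run from 57 to 406 residues.

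The libraries held 21598326 to 27317490 counts each. Genes were kept for testing when counts were high enough in at least the libraries of 1 group, which left 14449 genes and 7 of the 8 dod genes. CPM are counts scaled to library size with TMM factors, a normalization on the bulk of genes, and a gene was called when its edgeR adjusted p was under 0.05. Together the 8 dod genes took 0.0638% to 0.0655% of counts in arsenite at 5 days, 0.0588% to 0.068% in water at 5 days, 0.014% to 0.0142% in arsenite at 1 day and 0.014% to 0.0143% in water at 1 day. Between the ages this share did not overlap, and between treatments of the same age it did. In whole worms, fewer cells of a type and less RNA per cell cannot be told apart.

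Age separated most dod genes. At 5 days, dod-3, dod-19, dod-22, dod-23 and dod-24 were higher than at 1 day, dod-6 was lower and dod-17 was not called, in arsenite worms and in water worms alike. In arsenite 6 of 7 tested members were called, 5 higher and 1 lower, beside 59.6% of all genes (30.3% higher and 29.4% lower). In water it was also 6 of 7, 5 higher and 1 lower, beside 60.1% of all genes (30.1% higher and 30% lower). The ages' libraries did not overlap for the same 6 members, beside 81% of all genes in arsenite (41.1% higher and 39.9% lower) and 79% in water (39.8% higher and 39.2% lower). The members' median log2 fold change was 1.72 in arsenite and 1.94 in water, beside 0.01 over all genes in each. Arsenite itself moved no dod gene past the test at either age, beside 0.0138% of all genes at 5 days and 0% at 1 day.

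**Figure D1:**
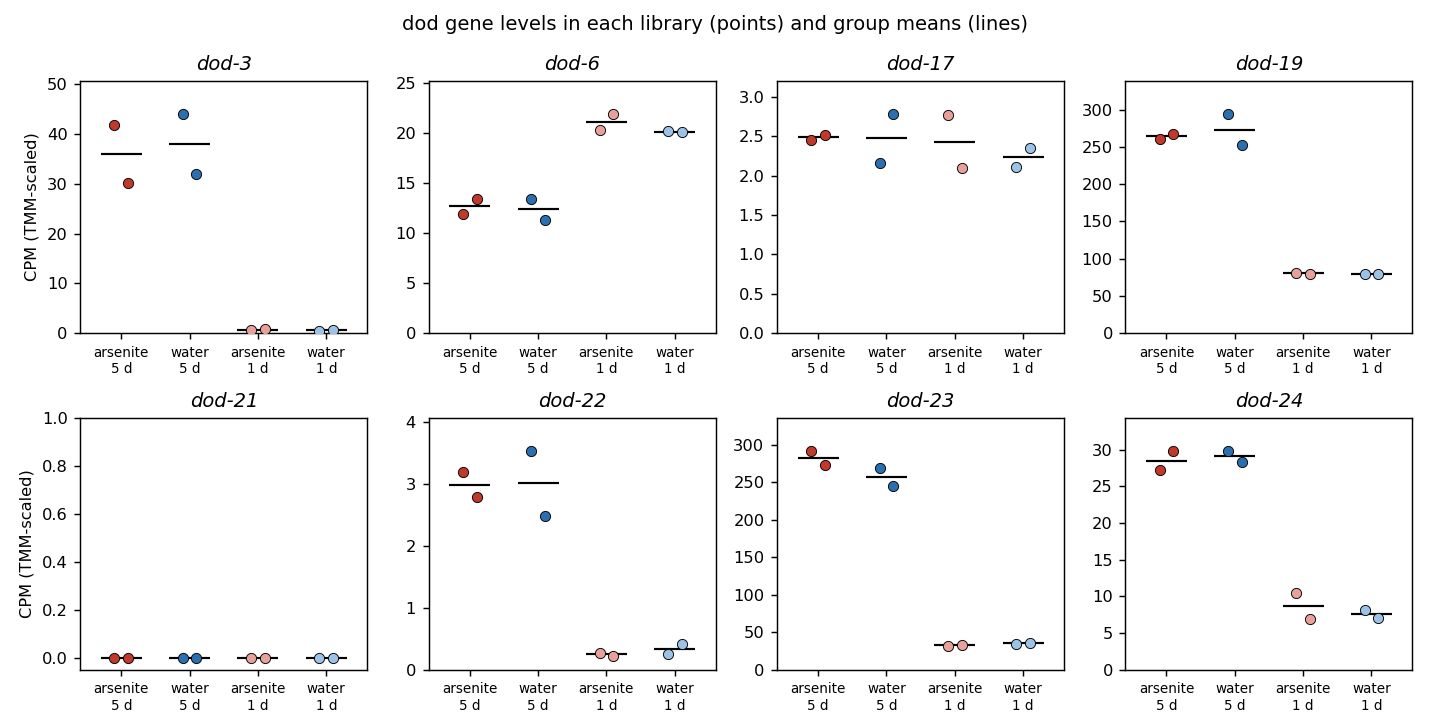
Level of each dod gene in TMM-scaled CPM (y axes start at 0 and differ between genes; that of dod-21 starts just below 0) in the 4 groups. Points are the 2 libraries of a group and lines their mean; the 5-day points of dod-3, dod-19, dod-22, dod-23 and dod-24 lie above all 1-day points, those of dod-6 lie below, and dod-21 is at 0 throughout.

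The class I gene dod-3 encodes a small protein of unknown function and had the largest change among the members. It stood at 41.7 and 30.2 CPM in arsenite at 5 days, against 0.624 and 0.713 CPM in arsenite at 1 day. In water it stood at 44.1 and 31.9 CPM at 5 days, against 0.508 and 0.56 CPM at 1 day. No 5-day library came near a 1-day library. The log2 fold change was 5.74 (SE 0.29, edgeR adjusted p = 1.01e-07) in arsenite and 6.14 (SE 0.30, edgeR adjusted p = 8.53e-08) in water, higher in 2 of 2 libraries each time. These values exceeded those of 99.6% and 99.7% of all genes. The 1-day levels rest on 35 counts over both arsenite libraries and 27 over both water libraries. From counting error alone, the ratio of 5 days to 1 day was 54.2 (95% interval 38.8 to 78) in arsenite and 71.1 (48.7 to 108.2) in water.

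The other class I gene, dod-6, moved the opposite way. It had 11.9 and 13.5 CPM in arsenite at 5 days, against 20.3 and 21.9 CPM in arsenite at 1 day. In water it had 13.5 and 11.36 CPM at 5 days, against 20.3 and 20.1 CPM at 1 day. All 4 libraries at 5 days were below all 4 at 1 day. It fell by 0.74 (SE 0.11, edgeR adjusted p = 6.27e-06) in arsenite and by 0.70 (SE 0.11, edgeR adjusted p = 1.36e-05) in water on the log2 scale. So the pair of genes first named as raised by DAF-16 did not share a direction with age.

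Among the class II genes, dod-23 and dod-19 were the most abundant. The level of dod-23 was 292.5 and 273.7 CPM in arsenite at 5 days, against 32.1 and 33 CPM in arsenite at 1 day. In water it was 269 and 245.7 CPM at 5 days, against 33.8 and 36.2 CPM at 1 day. The 5-day libraries lay far above the 1-day libraries, and the log2 fold change was 3.12 (SE 0.07, edgeR adjusted p = 1.29e-20) in arsenite and 2.88 (SE 0.07, edgeR adjusted p = 5.02e-20) in water.

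The gene dod-19 had 260.9 and 267.9 CPM in arsenite at 5 days, against 80.6 and 79.6 CPM in arsenite at 1 day. In water it had 294.3 and 252.2 CPM at 5 days, against 79.2 and 79.2 CPM at 1 day. The 1-day libraries were nearly equal to each other, while the 5-day water libraries spread more widely. Its log2 fold change was 1.72 (SE 0.07, edgeR adjusted p = 3.63e-16) in arsenite and 1.79 (SE 0.07, edgeR adjusted p = 1.97e-16) in water. Next to it on chromosome V lies irg-8, a gene named for its response to infection, 1110 bases away. It fell in the same libraries, with a log2 change of -1.41 in arsenite and -1.36 in water.

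The CUB-like genes of chromosome IV differed among themselves. The gene dod-24 had 27.2 and 29.8 CPM in arsenite at 5 days, against 10.4 and 6.94 CPM in arsenite at 1 day. In water it had 29.9 and 28.3 CPM at 5 days, against 8.16 and 7.02 CPM at 1 day. Its 5-day libraries were all higher, and the log2 fold change was 1.72 (SE 0.14, edgeR adjusted p = 1.16e-08) in arsenite and 1.94 (SE 0.14, edgeR adjusted p = 2.9e-09) in water. The 2 arsenite libraries at 1 day stood further apart than those of any other group of this gene.

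The gene dod-22, known for its induction in worms fed Pseudomonas aeruginosa, was rare. It had 78 and 62 counts (3.19 and 2.79 CPM) in arsenite at 5 days, against 7 and 6 counts (0.273 and 0.225 CPM) in arsenite at 1 day. In water it had 85 and 58 counts (3.54 and 2.49 CPM) at 5 days, against 6 and 11 counts (0.254 and 0.411 CPM) at 1 day. The ages did not overlap. With so few counts at 1 day, the gene passed the low-count filter through the 5-day groups, where it is high. The log2 fold change was 3.56 (SE 0.36, edgeR adjusted p = 1.08e-08) in arsenite and 3.15 (SE 0.34, edgeR adjusted p = 3.54e-08) in water. Counting error alone gave a ratio of 5 days to 1 day of 12.1 (95% interval 6.83 to 23.2) in arsenite and 8.96 (5.41 to 15.8) in water.

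The gene dod-17, further along the same stretch, was about as rare at 5 days and was not called. It had 2.45 and 2.52 CPM in arsenite at 5 days, against 2.77 and 2.1 CPM in arsenite at 1 day. Water worms had 2.17 and 2.79 CPM at 5 days, against 2.11 and 2.35 CPM at 1 day. Libraries of the ages overlapped in each treatment. The log2 difference was 0.03 (95% interval -0.45 to 0.51, edgeR adjusted p = 0.914) in arsenite and 0.14 (-0.34 to 0.63, edgeR adjusted p = 0.614) in water. Rises of the size fitted for dod-19, dod-22, dod-23 and dod-24 lie outside these intervals. Changes inside the intervals cannot be told from none at this depth.

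No count fell on dod-21 in any library. With 3 counts as the limit that a count of 0 allows, this leaves room for up to 0.123 and 0.135 CPM in arsenite at 5 days, 0.125 and 0.129 CPM in water at 5 days, 0.117 and 0.113 CPM in 1-day arsenite worms and 0.127 and 0.112 CPM in 1-day water worms, from counting error only. The gene lies 2117 bases from dod-24, on the opposite strand, and the annotation gives both genes 3 coding segments of 284, 669 and 130 bases in that order. Genes of such equal layout may share sequence, which was not compared here, and how reads that match several places were counted is not given in the sources used here, so the counts of dod-21 and dod-24 are uncertain. The protein-coding genes next to dod-21, cld-1 and a gene listed as srlf-6 (WBGene00007874), also had 0 counts in all 8 libraries. Coding segments of dod-17 and of the longer dod-22 isoform also match in part: the third, sixth and seventh have 110, 146 and 62 bases in each.

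**Figure D2:**
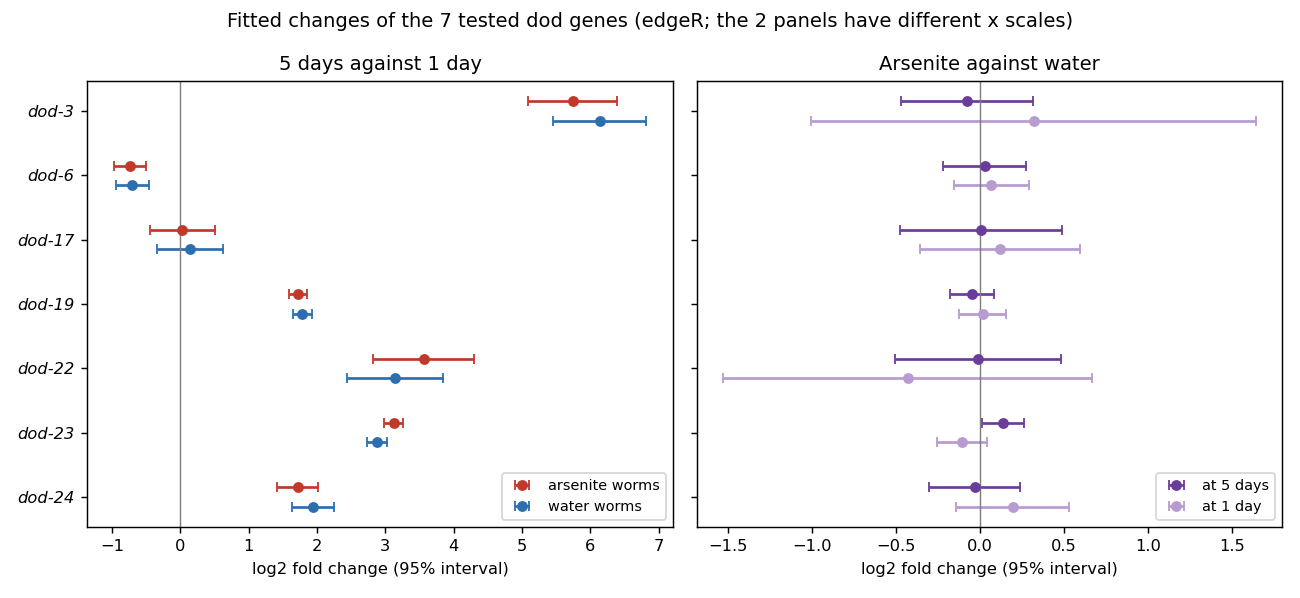
Fitted log2 fold changes of the 7 tested dod genes with 95% intervals from edgeR. At left 5 days is set against 1 day in arsenite worms and in water worms, and at right arsenite is set against water at 5 days and at 1 day; at left 6 genes have intervals away from 0 in each treatment, and at right only the interval of dod-23 at 5 days, from 0.01 to 0.26, leaves 0 out.

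The levels were next compared between genes per kb of exon, since longer messages collect more reads. At 5 days the order in arsenite was dod-23 (382.1 ± 18 CPM per kb), dod-19 (189.4 ± 3.55), dod-3 (85.7 ± 19.4), dod-24 (24.6 ± 1.6), dod-6 (21.8 ± 1.9), dod-22 (2.38 ± 0.224) and dod-17 (2.18 ± 0.042), each a mean with SD of n = 2. In water at 5 days the order was the same, with dod-23 at 347.3 ± 22.2 and dod-17 at 2.17 ± 0.385 CPM per kb. In water the libraries of dod-22 and dod-17, next to each other in this order, overlapped, and the other neighbours in the order did not. Among all tested genes, dod-23 stood above 98.6% in arsenite and 98.3% in water by this measure.

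At 1 day the order was different. In arsenite it ran from dod-19 (57.4 ± 0.502 CPM per kb) over dod-23 (43.9 ± 0.867), dod-6 (36.4 ± 2.02), dod-24 (7.5 ± 2.13), dod-17 (2.14 ± 0.415) and dod-3 (1.59 ± 0.149) to dod-22 (0.199 ± 0.027), and in water it was the same, from 56.7 ± 0.00779 for dod-19 to 0.265 ± 0.0887 for dod-22 (SD, n = 2). By this measure dod-3 stood above 89.6% of tested genes in arsenite at 5 days, against 26.9% in arsenite at 1 day, and above 90.4% in water at 5 days, against 23.7% in water at 1 day. dod-22 stood above 33.6% in arsenite and 33.4% in water at 5 days, against 3.18% in arsenite and 4.78% in water at 1 day.

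**Figure D3:**
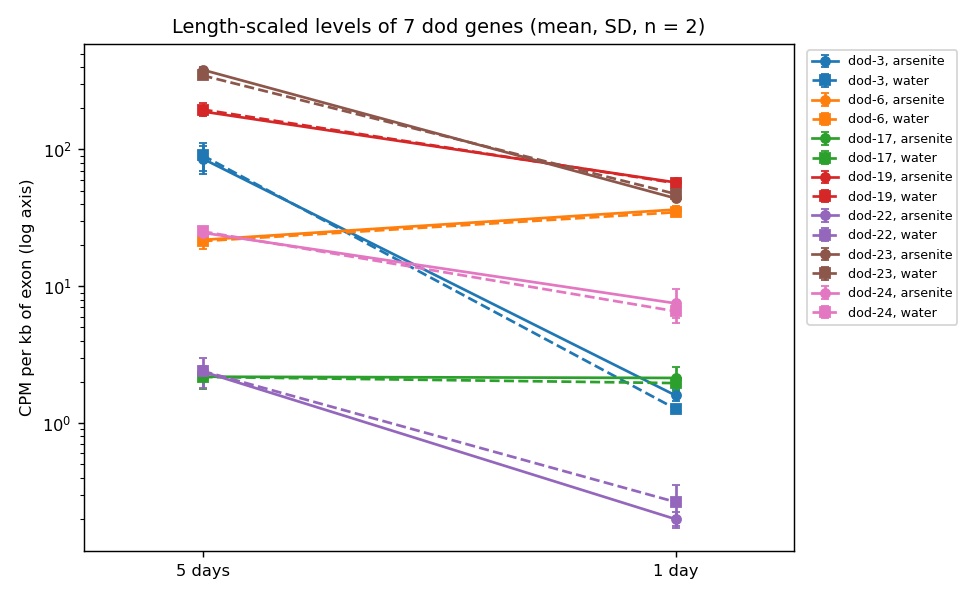
Mean level per kb of exon on a log axis (CPM per kb, SD of 2 libraries) for 7 dod genes at 5 days and 1 day, solid lines for arsenite and dashed lines for water. The lines of dod-3 cross those of dod-6, dod-17 and dod-24 between the ages, and the lines of the treatments lie close together for every gene.

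Arsenite was compared with water at each age. At 5 days none of the 7 tested dod genes was called, beside 0.0138% of all genes, and the members' log2 differences ran from -0.08 to 0.14. The largest belonged to dod-23, at 292.5 and 273.7 CPM in arsenite, against 269 and 245.7 CPM in water. It was higher in 2 of 2 arsenite libraries, with a log2 difference of 0.14 (SE 0.06) and an unadjusted p of 0.0338, which became 0.999 in the edgeR adjustment. It was the only member whose arsenite and water libraries did not overlap at 5 days, beside 29.5% of all genes. The narrowest intervals of the others at 5 days were those of dod-19 (-0.18 to 0.08) and dod-6 (-0.22 to 0.27), and the widest was that of dod-22 (-0.50 to 0.48).

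At 1 day again none of the 7 was called, beside 0% of all genes. Unadjusted edgeR p fell under 0.05 for 238 genes, none of them a dod gene, and DESeq2 and limma voom also called 0 genes. Log2 differences ran from -0.43 (95% interval -1.53 to 0.67) for dod-22 to 0.32 (-1.004 to 1.64) for dod-3, which rest on few counts. Without water replicate 2 at 1 day the difference of dod-22 was -0.029. For dod-3 the arsenite libraries had 16 and 19 counts, against 12 and 15 in water. Libraries did not overlap for 4 of 7 members, with dod-3, dod-6 and dod-19 higher and dod-23 lower in arsenite, beside 28.5% of all genes. For dod-19 the values were 80.6 and 79.6 CPM in arsenite, against 79.2 and 79.2 CPM in water, a log2 difference of 0.02 (-0.12 to 0.16).

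Averaged over both ages, 0 of the 7 were called, beside 0% of all genes. In edgeR 412 genes had an unadjusted p under 0.05, 0 of them members, and DESeq2 and limma voom called no member either. The differences then ran from -0.22 for dod-22, or -0.0203 without water replicate 2 at 1 day, to 0.12 for dod-3. The arsenite effect at 5 days was also set against that at 1 day. It differed by 0.24 (SE 0.09) on the log2 scale for dod-23, with an unadjusted p of 0.0162 and an edgeR adjusted p of 1.00. The gene was lower in arsenite at 1 day, at 32.1 and 33 CPM against 33.8 and 36.2 CPM in water, and higher at 5 days as given above. The remaining members had unadjusted p from 0.287 for dod-24 upwards, and 0% of all genes were called by edgeR in this comparison (368 with an unadjusted p under 0.05), nor did DESeq2 or limma voom call any.

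Within an age, the 5-day libraries numbered 23 (water) and 24 (arsenite) differed from those numbered 25 (water) and 26 (arsenite) for some members. The level of dod-3 was 1.38 times as high in library 24 as in 26 and 1.38 times as high in 23 as in 25. Libraries 23 and 24 did not overlap with 25 and 26 for dod-3 and dod-22, both higher, and dod-17, lower, which is 3 of 7 members, beside 45.1% of all genes. The log2 ratio of 23 and 24 over 25 and 26 ran from -0.20 for dod-17 to 0.46 for dod-3. At 1 day that of libraries 31 and 32 over 33 and 34 ran from -0.27 for dod-22, on few counts, to 0.41 for dod-24. Since each pair holds an arsenite and a water library, these splits do not run along the treatment.

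Tissue markers differed between the ages as well. The 10 intestine markers, all with counts in every group, summed to 1431 to 1603 CPM in arsenite and 1501 to 1646 CPM in water at 5 days, against 3837 to 4132 CPM in arsenite and 3920 to 4220 CPM in water at 1 day. Of these, 9 fell and none rose in arsenite, beside 29.4% of all genes called lower and 30.3% called higher. In water 8 fell and none rose, beside 30% of all genes called lower and 30.1% called higher. The same shares stand beside the marker counts that follow. Genes listed as embryo markers were pha-4, hlh-1, unc-120, end-1, elt-1 and ceh-20. They summed to 46.4 to 49.3 CPM in arsenite and 46.6 to 50.5 CPM in water at 5 days, against 130.6 to 130.9 CPM in arsenite and 122.9 to 124.5 CPM in water at 1 day. Of this, end-1 gave means of 0.0859 CPM in arsenite and 0.0637 CPM in water at 5 days. At 1 day it gave 1.2 CPM in arsenite and 1.185 CPM in water. Whether the sum reflects embryos was not tested. The sum of the 7 germline and oocyte markers was 7150 to 7165 CPM in arsenite and 7131 to 7322 CPM in water at 5 days, against 7065 to 7487 CPM in arsenite and 7167 to 7280 CPM in water at 1 day. Body wall muscle markers summed to 1375 to 1376 CPM in arsenite and 1416 to 1583 CPM in water at 5 days, against 4813 to 5123 CPM in arsenite and 4939 to 5005 CPM in water at 1 day. Sums over hypodermis and sperm markers were also lower at 5 days in each treatment, and those of neurons were higher. Single genes weighed heavily in these sums. The neuron marker snb-1 went from 123.9 to 255.6 CPM in arsenite and from 122.5 to 269.7 CPM in water. Of 8 neuron markers, 1 rose and 3 fell in arsenite, and 4 rose and 3 fell in water. Of 6 hypodermis markers, 1 rose and 4 fell in each treatment, and of 5 tested sperm markers 2 fell. The part of these shifts in the dod values was not tested.

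Neighbours of the CUB-like dod genes were described along the chromosome IV stretch. Of its 9 genes that are not dod genes, srlf-6, F55G11.1, F55G11.6, F55G11.7 and F55G11.10 had too few counts to be tested. Among the others, F55G11.4 and dct-19 rose and F55G11.2 fell with age in each treatment. Beside this stand 59.6% of all genes called in arsenite and 60.1% in water. F55G11.4, which ends 699 bases before dod-17, had a mean of 124.6 CPM in arsenite at 5 days, against 19 CPM in arsenite at 1 day, and 134.8 CPM in water at 5 days, against 17.8 CPM in water at 1 day. Its log2 fold change was 2.71 in arsenite and 2.92 (SE 0.08) in water. F55G11.2, which lies 52 bases after dod-22 on the other strand, had log2 changes of -0.998 in arsenite and -1.02 (SE 0.20) in water. F55G11.8, which ends 728 bases before dod-22, had log2 changes of -0.46 (edgeR adjusted p = 0.0639) in arsenite and -0.72 (edgeR adjusted p = 0.00553) in water, the call in water being lost without water replicate 2 at 5 days (edgeR adjusted p = 0.08465) and once neighbouring library numbers entered the fit (edgeR adjusted p = 0.0882). In arsenite F55G11.8 was called in 5 of 15 alternatives, among them the fit without arsenite replicate 1 at 5 days (-0.76, edgeR adjusted p = 0.0183). dct-19 had 10 and 9 counts in arsenite and 22 and 17 in water at 5 days, against 0 at 1 day, so it was at least 3.54-fold higher in arsenite and at least 6.89-fold higher in water, with 3 counts per library set for the libraries at 0. Like dod-22, dct-19 passed the low-count filter only through the 5-day groups, where it is high. With dct-19 and dod-22 set aside, the stretch still held genes that rose, fell and did neither side by side.

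**Figure D4:**
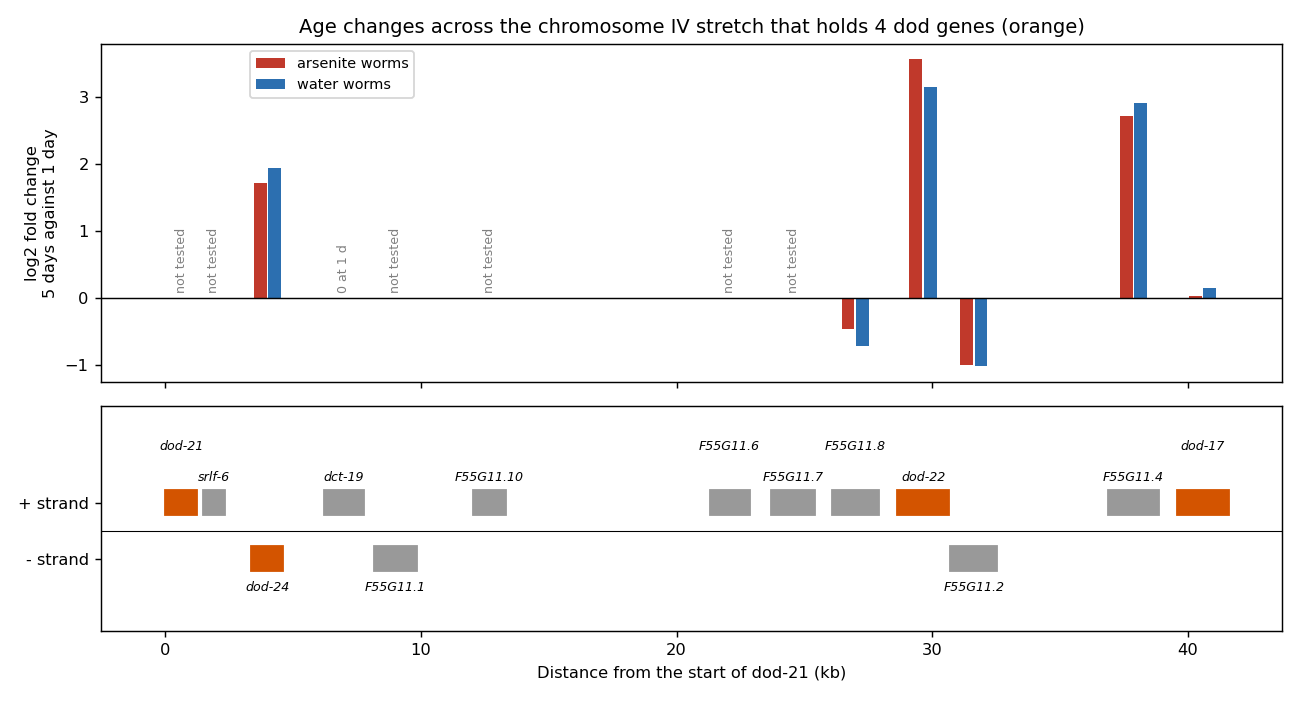
Upper panel: log2 fold change of 5 days against 1 day in arsenite and water worms for each protein-coding gene of the chromosome IV stretch, placed by distance in kb from the start of dod-21; "not tested" marks genes with too few counts and "0 at 1 d" a gene without counts at 1 day. Lower panel: the genes to scale by strand, dod genes in orange; dod-24, dod-22 and F55G11.4 rise, F55G11.2 falls, and dod-17 stays near 0.

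Genes of the insulin/IGF pathway and its transcription factors, daf-16 and pqm-1 among them, were counted from a list of 21 genes, all tested. With age 10 rose and 4 fell in each treatment, beside 59.6% of all genes called in arsenite and 60.1% in water, and the median log2 change was 0.15 in arsenite and 0.14 in water, beside 0.01 over all genes in each. Among those that rose were rict-1, a TORC2 subunit (0.55 in arsenite, 0.57 in water), pdk-1, a kinase that activates AKT (0.77 and 0.65), and akt-2, an AKT kinase (1.03 and 0.96). Among those that fell were age-1, the catalytic PI3-kinase subunit (-0.33 and -0.32), elt-2, the main GATA factor of the intestine (-0.56 and -0.48), and sir-2.1, a sirtuin (-0.22 and -0.20). The call of elt-2 in water was lost without water replicate 1 at 5 days (log2 change -0.30, edgeR adjusted p = 0.0741), and that of sir-2.1 in water without water replicate 2 at 1 day (-0.18, edgeR adjusted p = 0.0609). No gene of this list was called for arsenite at either age, beside 0.0138% of all genes at 5 days and 0% at 1 day. The log2 differences lay between -0.14 and 0.13 at 5 days and between -0.10 and 0.07 at 1 day.

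The regulators themselves were looked at outside the naming rule, after their values were seen. daf-16 had a mean of 163.5 CPM in arsenite at 5 days, against 143.2 CPM in arsenite at 1 day, and 153.7 CPM in water at 5 days, against 139.8 CPM in water at 1 day. It rose by 0.19 (SE 0.06, edgeR adjusted p = 0.00877) in arsenite, a call lost without arsenite replicate 2 at 5 days (0.14, edgeR adjusted p = 0.122) or arsenite replicate 2 at 1 day (0.14, edgeR adjusted p = 0.136). In water it had 0.14 (edgeR adjusted p = 0.0529). pqm-1 rose by 0.66 (SE 0.10) in arsenite and 0.74 (SE 0.10) in water, on the log2 scale.

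Other genes known to follow DAF-16 were counted next, and their counts are to be read beside the 30.3% of all genes called higher and 29.4% called lower in arsenite, and the 30.1% higher and 30% lower in water. Of 19 tested class I genes outside the dod set, 9 rose and 5 fell in arsenite, and 9 rose and 4 fell in water. lys-7, a lysozyme, had a mean of 1239 CPM in arsenite at 5 days, against 74.3 CPM in arsenite at 1 day, and 1260 CPM in water at 5 days, against 75 CPM in water at 1 day. The small heat shock protein gene sip-1 rose by 1.37 in arsenite and 1.48 in water, and the metallothionein gene mtl-2 by 2.42 and 2.39. On the lower side were the fatty acid desaturase gene fat-7 (-1.47 and -1.54), the nucleotide transhydrogenase gene nnt-1 (-0.53 and -0.47) and icl-1, an enzyme of the glyoxylate cycle (-1.16 and -1.07). The class held genes that rose with dod-3 and genes that fell with dod-6.

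Of 6 tested class II genes outside the dod set, 2 rose and 2 fell in each treatment. ins-7, an insulin-like peptide gene, rose by 4.17 (SE 0.35) in arsenite and 4.22 (SE 0.36) in water on the log2 scale, and the yolk protein gene vit-5 by 0.48 and 0.38. At 1 day ins-7 had a mean of only 0.25 CPM in arsenite and 0.241 CPM in water. Like dod-22, it passed the low-count filter through the 5-day groups, where it is high. acdh-1, an acyl-CoA dehydrogenase gene, had log2 changes of -1.98 and -1.85, and vit-2, also a yolk protein gene, -0.42 and -0.45. Among 30 tested CUB-like and p38 pathway genes outside the dod set, 14 rose and 10 fell in arsenite, and 15 rose and 10 fell in water. Beside these counts and those of the class II genes stand the same shares of all genes, 59.6% called in arsenite and 60.1% in water. Of the genes that rose, spp-9 and C32H11.3 passed the low-count filter only through the 5-day groups, where they are high. C32H11.3 had 1-day means of 0.0375 CPM in arsenite and 0.12 CPM in water. The 1-day means of irg-1 (0.345 and 0.288 CPM) and irg-2 (0.362 and 0.363 CPM) were also low. The counts of rises thus include genes whose direction the filter favoured. Besides F55G11.4, C32H11.4 rose by 2.33 and 2.99, and spp-9, which encodes a saposin-like protein, was at least 34.9-fold higher in arsenite and at least 36.2-fold higher in water against 0 counts at 1 day, with 3 counts per library set for these. dct-17 (-1.43 and -1.20), irg-5 (-1.11 and -1.32) and K10D11.5 (-0.89 and -0.97) fell. None of these class I, class II or immune genes was called for arsenite at either age, beside 0.0138% of all genes at 5 days and 0% at 1 day.

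Likeness of pattern was measured as the root mean square difference of mean-centred log2 CPM over the 8 libraries. The gene most like dod-3 was spp-9 (0.13), followed by T22B7.7 (0.17) and scl-2 (0.19). Since spp-9 had 0 counts at 1 day, its values there, and with them its distance and rank, are set by the prior count of 2. For dod-23 it was ttr-45, a transthyretin-related gene (0.08), for dod-19 C35B1.4 (0.05) and the hexosaminidase gene hex-1 (0.05), and for dod-24 Y111B2A.2 (0.09). For dod-22 it was T12D8.10 (0.12), for dod-6 C39B5.2 (0.04) and for dod-17 sel-15 (0.06). Between members, log2 CPM of the 10 pairs among dod-3, dod-19, dod-22, dod-23 and dod-24 had Pearson correlations over 0.9 across the 8 libraries. The 8 libraries fall into 2 ages, which sets most of these values, and they are given as a description.

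The count table also holds dod-18 and dod-20, class II genes by their naming. dod-18 had 16.3 and 15.9 CPM in arsenite at 5 days, against 10.5 and 9.98 CPM in arsenite at 1 day. Water worms had 15.2 and 16 CPM at 5 days, against 11.12 and 10.9 CPM at 1 day. It rose by 0.65 (edgeR adjusted p = 3.18e-05) in arsenite and 0.50 (SE 0.11, edgeR adjusted p = 0.000602) in water. dod-20 had at most 7 counts in a library and was not tested.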

How the data were processed

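An Illumina mRNA kit was used, per the labels' protocols. The deposited values used here are whole-number read counts per WormBase gene; the submitters' processing notes name featureCounts 1.4.6-p4, STAR 2.4.1d, CASAVA 1.7 and build WBcel235. Not given in the sources used here are annotation release, strand setting and treatment of reads matching several places. A deposited RPKM table was not used here because its libraries are not on a common scale. Symbols were matched for 43693 identifiers; positions and exon lengths are from Ensembl release 115 on the same build.

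Tests used edgeR 4.0.16 (R 4.3.3): filterByExpr by group (minimum count 10, total 15), TMM, and a robust quasi-likelihood test on 4 group means over all 8 libraries, adjusted by Benjamini-Hochberg over 14449 genes. Standard errors came from the fold change and F statistic. Counting intervals are exact at 95% and, like the limits from 0 counts, cover counting error only. The fit was also run on simulated counts in which only a small set of genes changed. Since 59.6% of genes in arsenite and 60.1% in water were called for age, those counts do not match the age comparisons. Replicate libraries differed by more than sampling noise (chi-square per degree of freedom from 3.11 to 5.93). Alternatives were no filter, RLE scaling, library totals, DESeq2 1.42.0, limma 3.58.1 voom, fits within an age or treatment, neighbouring library numbers as a term, and leaving out each library. Named genes are all members, up to 3 genes per list and direction of smallest p in water, the nearest patterns and chromosomal neighbours. Members and lists were chosen with earlier results of these data known.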

Additional observations from a re-analysis of the deposited data

How the results depend on the processing

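The number of dod genes called stayed at 6 for age in arsenite and in water and at 0 for every arsenite comparison under all alternatives, and each of the 6 kept its direction and its call. The log2 age changes then ran in arsenite from 5.48 to 6.04 for dod-3 and in water from 5.88 to 6.44. Values that were not called changed sign in 37 cases. dod-17 had -0.00464 for arsenite at 5 days without the low-count filter, and -0.13 in arsenite and -0.031 in water for age with neighbouring library numbers as a term; dod-22 had 0.00808 for arsenite at 5 days by limma voom. On leaving out each library in turn, the arsenite difference at 5 days ran from -0.33 to 0.17 for dod-3, -0.10 to 0.15 for dod-6, -0.17 to 0.19 for dod-17, -0.16 to 0.0598 for dod-19, -0.25 to 0.26 for dod-22, 0.0659 to 0.20 for dod-23 and -0.11 to 0.0296 for dod-24. At 1 day it ran from -0.71 to -0.0292 for dod-22, -0.094 to 0.31 for dod-17 and -0.13 to 0.46 for dod-24. Averaged over both ages it ran from -0.36 to -0.0203 for dod-22, -0.0065 to 0.24 for dod-3, -0.0139 to 0.11 for dod-6, -0.0434 to 0.16 for dod-17, -0.0717 to 0.0394 for dod-19, -0.0196 to 0.0456 for dod-23 and -0.0796 to 0.21 for dod-24. The difference between the ages in the arsenite effect ran from 0.0178 to 0.70 for dod-22, -0.17 to 0.079 for dod-6, -0.30 to 0.10 for dod-17, -0.18 to 0.0408 for dod-19 and -0.49 to 0.10 for dod-24. The age change of dod-17 ran from -0.16 to 0.24 in arsenite and -0.0484 to 0.31 in water. The cause of these changes was not tested. Over all genes the alternatives called 0 to 2 genes for arsenite at 1 day, 0 to 22 at 5 days (2 as reported), 0 to 7 averaged and 0 to 2 for the difference. Of the insulin/IGF list 4 genes fell with age, and 2 with library totals in each treatment. The number of this list that rose with age, 10 in the main fit, moved both down and up over the alternatives in each treatment. With neighbouring library numbers as a term the age calls of daf-16 in arsenite (0.14, edgeR adjusted p = 0.0717), sir-2.1 in water (-0.14, edgeR adjusted p = 0.0776) and F55G11.8 in water (-0.42, edgeR adjusted p = 0.0882) were lost. With library totals daf-16 was called in water (0.21, edgeR adjusted p = 0.00345) and sir-2.1 in neither treatment. Fits to only the libraries of a contrast were not run for the average and the difference, which use all groups. No paired analysis was possible because the labels give no replicate numbers shared between groups; neighbouring library numbers, which no label calls a pair, were entered as a term instead. Depth limits dod-3 and dod-22 at 1 day and dod-17 throughout. The 0 counts of dod-21 stay uncertain, since the treatment of reads matching several places is not given.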
